A study of Homo sapiens with 14 samples.

Results

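The genes described here encode Mediator, the protein complex that links transcription factors bound to DNA with RNA polymerase II at promoters. Members were taken by symbol, as MED followed by a number from 1 to 31, with or without a final L, together with CDK8, CDK19 and CCNC. This gave 33 genes of the 19515 targeted across the 4 screens. The knockout screens held 31 of them with 124 guides (4 per gene), among 19114 genes and 77441 guides. The activation screens held 33 with 99 guides (3 per gene), among 18886 genes and 56762 guides. CDK8 and MED20 were analysed in the activation screens only.

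Mediator is built from modules. The head and the middle contact RNA polymerase II and, joined by the scaffold subunit MED14, form the core that helps the initiation machinery assemble. The tail receives signals from many transcription factors, and a detachable kinase module (CDK8 or its paralogue CDK19, cyclin C encoded by CCNC, MED12 or MED12L, and MED13 or MED13L) binds the core reversibly and tunes its contact with the polymerase. Core subunits are needed for growth in many cell types, because most protein-coding genes are transcribed with Mediator. Members were assigned to the 4 modules as they are usually described, although sources differ on the place of MED14 and of MED27 to MED30.

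The study asked which genes alter how colorectal cancer cells fare under the DNA-crosslinking platinum drug oxaliplatin. Both RKO and SW620 are established cell lines from human colorectal carcinoma, and they expressed either Cas9 with the Brunello library, whose guides direct cuts that disrupt a gene, or dCas9-VP64 with the Calabrese library, whose guides bring a transcriptional activator to a promoter. Cells were infected at about 0.3 viral particles per cell, selected in puromycin for 3 days, and collected at day 0 or after 20 days without drug or with oxaliplatin. RKO received 1.9 µM, and SW620 received 0.38 or 0.5 µM. All groups thus carried Cas9 or dCas9-VP64 and a guide library, the untreated and day 0 ones included. There was 1 library per condition, 14 in all. Each test within a screen therefore compares the 2 libraries named, not the conditions. A difference between the lines rests on 2 libraries from each line. No difference could be set against the spread between cultures. What was counted was guides in genomic DNA. Neither editing nor the expression of the targeted genes was measured.

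Libraries held between 3647823 and 69526489 counts. In treated RKO knockout, in SW620 knockout at 0.5 µM and in treated RKO activation, the 1% most abundant guides took 41.4%, 31.5% and 52.8% of the counts. Mediator guides made up 0.163% of RKO knockout counts at day 0 (95% Wilson interval 0.161 to 0.164%), 0.0923% after 20 days without drug (0.0913 to 0.0933%) and 0.0949% with oxaliplatin. In SW620 knockout their share was 0.172% at day 0, 0.135% without drug, 0.124% at 0.38 µM and 0.0980% at 0.5 µM. In the activation screens it moved little without drug, from 0.167 to 0.162% in RKO and from 0.164 to 0.164% in SW620, and was 0.0628% in treated RKO and 0.156 and 0.143% in SW620 at 0.38 and 0.5 µM.

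Values below are log2 folds of counts that were scaled within a screen by the median ratio over guides, with a pseudocount of 5. A gene's value is the median over its guides. A gene was called when its guides ranked together at an end of the list, after folds were standardised among guides of similar mean count, by robust rank aggregation with an exact p adjusted over all genes (Benjamini-Hochberg) below 0.10. Guides of a gene share its target and the same pair of libraries, and they are not replicates of a condition.

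Without drug, knockout of 15 of 31 members was depleted from RKO between day 0 and day 20, and none was enriched. Of all 19077 genes tested, 6.63% were called as depleted and 0.0105% as enriched. The Mediator median was -1.21, against 0.09 over all genes, and 17 members lay at or below -1, as did 11.6% of all genes. At an unadjusted exact p below 0.05, 17 members were lower and 1 was higher, as were 2051 and 1161 of all genes. Medians were below 0 for 26 members and for 7340 of all genes. Of the 123 guides behind the member values, 102 were below 0 and 65 at or below -1. Non-targeting guides scattered with an SD of 0.30 around 0.51 in the same comparison. Scaling on those non-targeting guides instead lowers the RKO values by 0.51, so the small positive values given below lie near or below 0 on that scale.

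In SW620, knockout of 8 of 31 members was depleted and none was enriched, where 3.54% of 19100 genes were called as depleted and 0.00524% as enriched. The Mediator median was -0.39 against 0.04 over all genes, and 2 members lay at or below -1 (1.2% of all genes). Without adjustment, at an exact p below 0.05, 16 members were lower and 0 higher, beside 1673 and 1126 of all genes. Medians were below 0 for 28 members and for 8227 of all genes. Of the 123 guides behind the member values, 96 were below 0 and 16 at or below -1, with non-targeting guides at 0.25 (SD 0.21). Scaling on those guides lowers the SW620 values by 0.27. Of the called members 7 were called in both lines, which is 46.7% of the RKO calls and 87.5% of the SW620 calls. Without standardisation of folds, 4 members were called in SW620 (MED8, MED11, MED19 and MED30), and MED9 and MED22 were not called in RKO. Over all genes, 31.6% of the RKO calls and 59.1% of the SW620 calls were shared.

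**Figure D1:**
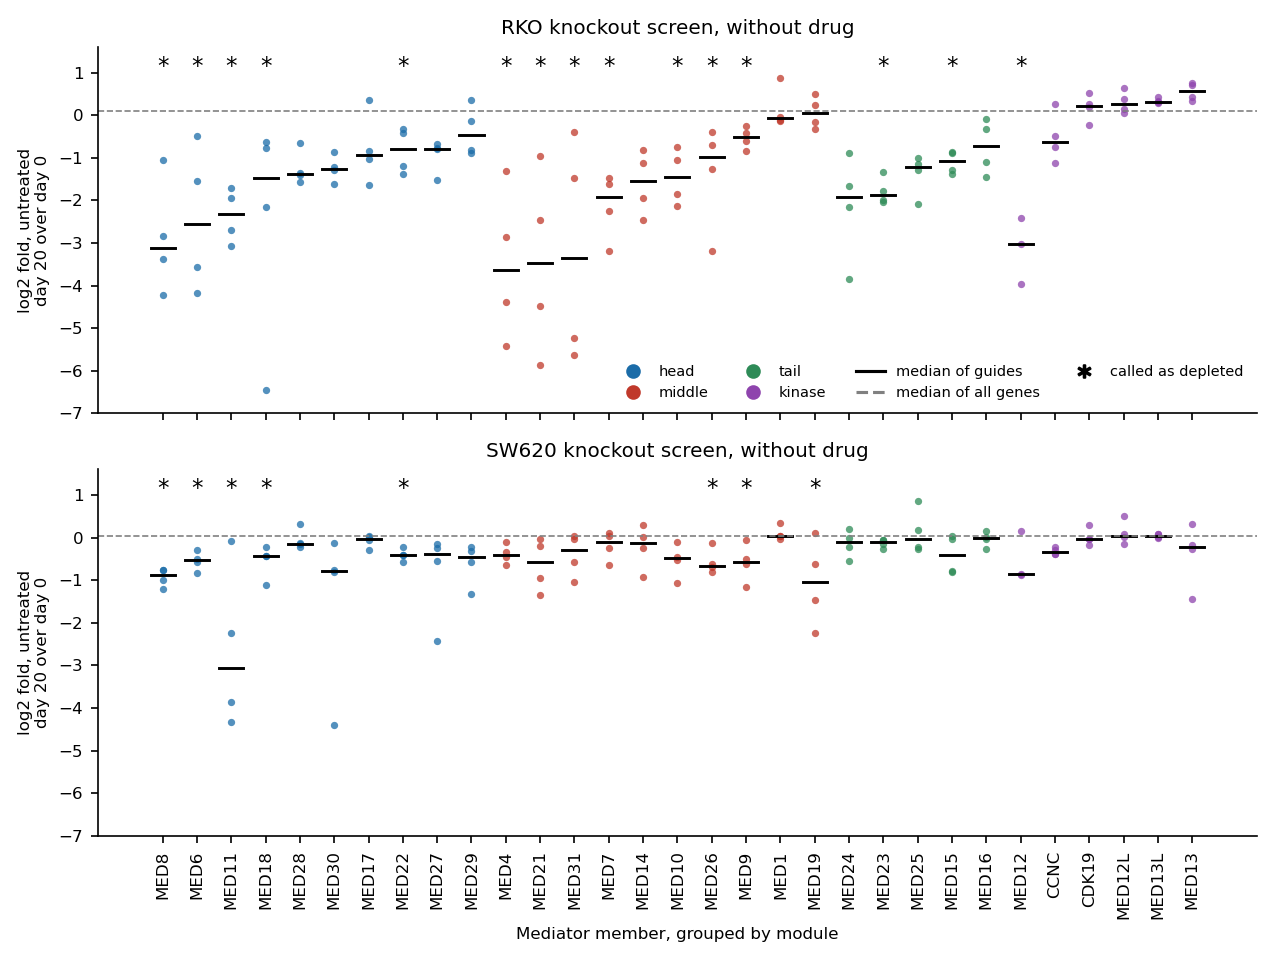
Log2 fold of each guide (points) and the median per member (bars) from day 0 to untreated day 20 in the RKO and SW620 knockout screens, with members grouped by module and ordered by their RKO value. The dashed line is the median of all genes and an asterisk marks members called as depleted; most head, middle and tail members lie lower in RKO than in SW620, where MED11 has the lowest median at -3.05.

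The head module had the same 5 members called in each line. It includes the subunits nearest the polymerase and the general initiation factors, and the called ones of its 10 knockout members were MED6, MED8, MED11, MED18 and MED22. Its median was -1.32 in RKO and -0.44 in SW620. MED8, which helps tether the MED18 and MED20 pair to the head, had scaled counts of 464, 413, 398 and 415 for its 4 guides at RKO day 0 and of 40.4, 195, 16.6 and 53.4 at untreated day 20. All 4 guides were lower, and the median was -3.11 (adjusted exact p = 0.00274). In SW620 the same guides went from 997, 815, 851 and 865 to 589, 475, 422 and 372, again with every guide lower. The SW620 median was -0.89 (adjusted exact p = 0.000753).

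MED11, a small head subunit that pairs with MED22, was the member with the lowest SW620 value. Its SW620 guides fell from 553, 386, 128 and 499 scaled counts to 525, 22.0, 1.63 and 101, a median of -3.05 (adjusted exact p = 0.000319), and 0.00524% of all genes had a lower median. The first guide, at -0.08, stayed at its day 0 level while the others lay between -4.33 and -2.25. In RKO all 4 guides were lower, from 347, 201, 63.4 and 224 to 49.0, 19.5, 15.9 and 54.8, with a median of -2.32 (adjusted exact p = 0.063). MED11 was thus called in both lines, and its 4 guide by guide differences between the lines ran from -2.63 to 2.62 with a median of 0.54.

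MED6, a conserved head subunit that contacts the middle, had guides at -4.17, -3.56, -1.54 and -0.50 in RKO (median -2.55, adjusted exact p = 0.0114) and between -0.83 and -0.29 in SW620 (median -0.54, adjusted exact p = 0.0212). MED18, which forms a movable part of the head with MED20, had a median of -1.47 in RKO (adjusted exact p = 0.0225), where a guide went from 430 scaled counts to 0, at least 199-fold lower against a floor of 3 counts. That guide was also the lowest MED18 guide in SW620, at -1.11 around a median of -0.43 (adjusted exact p = 0.0748). MED22 moved least of the called head members, with medians of -0.80 in RKO (adjusted exact p = 0.0337) and -0.42 in SW620 (adjusted exact p = 0.0536) and all guides below 0 in both lines.

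The other head members did not pass the test in either line. MED17, the large subunit around which the head is built, had RKO guides at 0.36, -0.83, -1.64 and -1.03 and SW620 guides between -0.30 and 0.03, with medians of -0.93 and -0.03. MED29 had medians of -0.48 and -0.45. The RKO medians of MED27, MED28 and MED30 were -0.78, -1.38 and -1.26, with every guide below 0, and these 3 passed when folds were not standardised within bins of similar count. MED30 in SW620 had a guide at -4.40 beside others between -0.80 and -0.13 (median -0.78).

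The middle module held the 3 lowest members in RKO. It connects head and tail and includes hooks for elongation factors, and 7 of its 10 members were called in RKO (MED4, MED7, MED9, MED10, MED21, MED26 and MED31; module median -1.50) against 3 in SW620 (MED9, MED19 and MED26; module median -0.44). MED4 pairs with MED9 in this module. Its RKO guides went from 208, 287, 265 and 146 scaled counts to 0, 35.3, 104 and 2.16, so that all were lower and the first was at least 96.2-fold lower. The median was -3.63 (adjusted exact p = 0.0174). The SW620 guides were at 373, 586, 485 and 329 on day 0 and at 348, 464, 309 and 237 without drug. Every one of them was lower too, but by a median of only -0.40, which did not pass the test.

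MED21 and MED31 repeated this contrast. MED21, which pairs with MED7 to form the hinge of the middle, had 2 RKO guides at 0 counts on day 20 (at least 48.8-fold and 132-fold lower) and the others at -2.45 and -0.95. Its median was -3.46 (adjusted exact p = 0.0716), while in SW620 the 4 guides lay between -1.34 and -0.03 with a median of -0.57 that was not called. MED31, a small subunit conserved from yeast to humans, also had 2 RKO guides at 0 (at least 84.7-fold and 111-fold lower) beside guides at -0.40 and -1.48. Its median was -3.36 (adjusted exact p = 0.0202) in RKO and -0.30, not called, in SW620. For MED4, MED21 and MED31 the median includes a guide at or near 0 counts, so its exact size depends on the pseudocount.

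MED7 and MED10 were called in RKO with every guide below 0. MED7, the partner of MED21, had a median of -1.93 (guides -3.20 to -1.48, adjusted exact p = 0.0392) and lay at -0.10 in SW620. MED10, a neighbour of MED14 at the core of the complex, had a median of -1.45 (guides -2.14 to -0.74, adjusted exact p = 0.00775) and lay at -0.49 in SW620. Called in both lines were MED9 (medians -0.52 and -0.56) and MED26 (-0.99 and -0.66). MED26 binds elongation factors and is absent from Mediator that carries the kinase module.

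MED19 was the only member called in SW620 and not in RKO. It is a middle subunit at the face of Mediator that meets the polymerase. Its SW620 guides went from 540, 248, 357 and 319 scaled counts to 193, 159, 385 and 63.7, which is 3 guides lower and 1 at its starting level (median -1.04, adjusted exact p = 0.0367). In RKO the same guides were at 293, 151, 280 and 174 on day 0 and 234, 180, 250 and 248 on day 20, a median of 0.05. The guide by guide difference had a median of 1.01, with 3 of 4 guides higher in RKO, and did not pass the test (exact p = 0.00157, adjusted 0.46). MED1, the subunit that binds nuclear receptors, was near 0 in both lines (-0.08 and 0.03). MED14 had all RKO guides below 0 (median -1.54) and was called only without standardisation, and it lay at -0.12 in SW620.

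In the tail, 2 of 5 members were called in RKO and none in SW620, with module medians of -1.21 and -0.10. In SW620, 1 tail member was lower at an unadjusted exact p below 0.05. MED23, a target of signalling through ELK1, had RKO guides that went from 244, 245, 613 and 358 to 93.7, 56.2, 175 and 86.5. Its 4 guides agreed closely, from -2.03 to -1.33, and the median was -1.88 (adjusted exact p = 0.00538). In SW620 they lay between -0.28 and -0.06. MED15, a docking site for several activators, had a RKO median of -1.09 (guides -1.37 to -0.86, adjusted exact p = 0.00899) and -0.41 in SW620. MED24 reached a RKO median of -1.91 with all guides below 0 (-3.85 to -0.89), but was not called. MED25 (-1.21) and MED16 (-0.72) had every RKO guide below 0, also without a call. MED24 and MED25 were called in RKO when folds were not standardised, and in SW620 MED24, MED25 and MED16 had medians of -0.11, -0.03 and -0.02.

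The kinase module had a median of 0.24 in RKO and -0.12 in SW620. MED12, which activates the kinase through cyclin C, was its only called member. The RKO guides that passed the count filter went from 494, 531 and 207 scaled counts to 88.0, 61.3 and 8.65, a median of -3.02 (adjusted exact p = 0.00907). The remaining guide had only 7.54 scaled counts at day 0, 0 later, and was left out. In SW620, MED12 guides were at -0.86, -0.87 and 0.16, with a median of -0.86 and an adjusted exact p of 0.107. The paralogue MED12L had medians of 0.26 in RKO and 0.05 in SW620.

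MED13 joins the kinase module to the core, and its guides were not lost from RKO. They went from 194, 285, 139 and 130 scaled counts to 319, 362, 188 and 224, so all 4 were higher, with a median of 0.57 that was not called. In SW620 the MED13 guides were at -0.26, -0.17, 0.31 and -1.44 (median -0.21). MED13L had medians of 0.32 in RKO and 0.04 in SW620, with RKO guides within 0.29 to 0.44. CDK19, the kinase paralogue of CDK8, was at 0.22 and -0.04, and CCNC was at -0.62 and -0.34. Scaled on non-targeting guides, MED13 is at 0.07 in RKO, and the RKO values of MED12L, MED13L, CDK19 and MED19 and the SW620 values of MED1, MED12L and MED13L lie below 0.

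The difference between the lines was tested guide by guide, since both knockout screens used the same guides. Relative to SW620, 8 of 31 members were lower in RKO and none was higher, where 7.06% of 19076 genes were called as lower and 0.0262% as higher. A gene's value here is the median of its guide by guide differences, which need not equal the difference of its medians in the lines. The Mediator median was -0.74, against 0.02 over all genes. Before adjustment, 15 members were lower in RKO at an exact p below 0.05 and 5 higher, as were 2072 and 1156 of all 19076 genes. The called members were MED4 at -3.23 (adjusted exact p = 0.0153), MED21 at -2.97 (0.0695), MED31 at -2.85 (0.0401) and MED7 at -1.83 (0.0209) of the middle, MED8 at -2.13 (0.0329) of the head, MED24 at -1.90 (0.0929) and MED23 at -1.78 (0.0144) of the tail, and MED12 at -2.15 (0.0169) of the kinase module. In each of these 8 genes every guide that passed was lower in RKO. MED6, called in both lines, had a difference of -1.85 with 4 of 4 guides lower in RKO, and was not called.

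By module the median difference was -0.70 in the head, -1.11 in the middle, -1.56 in the tail and 0.28 in the kinase module. In the tail all 5 members had differences below 0. Across the 31 members, the medians of the lines had a Spearman correlation of 0.39 and a Pearson correlation of 0.31, given as a description since the members share libraries and day 0 counts. Over all 19076 genes these were 0.34 and 0.61. The median range between guides of a Mediator gene was 1.35 in RKO and 0.75 in SW620. Non-targeting guides had an SD of 0.30 in RKO and 0.21 in SW620. At day 0 their median scaled counts were 611 in RKO and 874 in SW620, against 279 and 494 for Mediator guides. The SDs thus come from guides with higher counts, and scatter at the counts of Mediator guides was not measured.

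**Figure D2:**
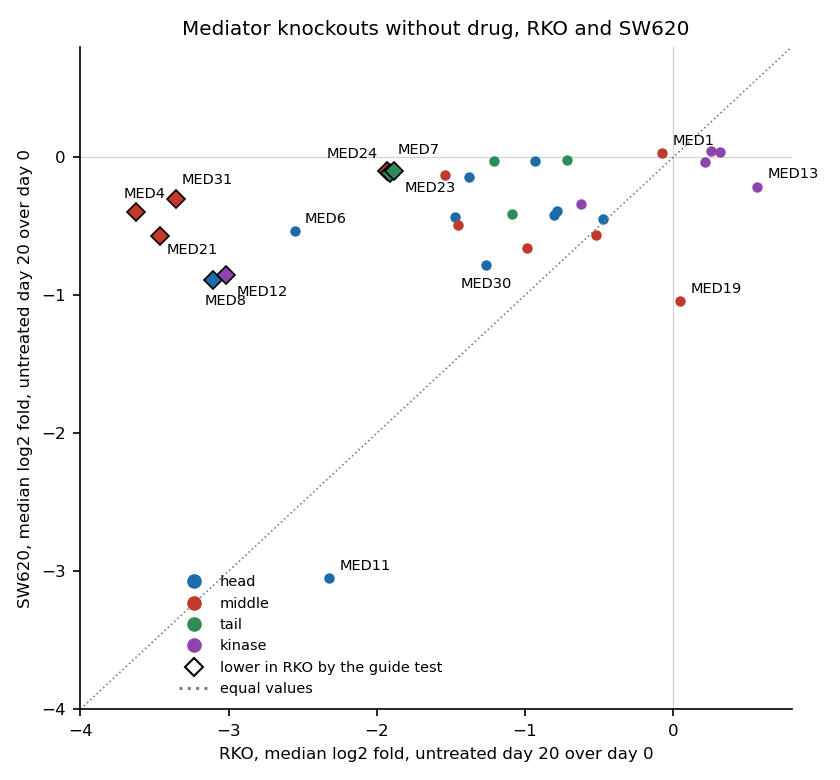
Median log2 fold per member from day 0 to untreated day 20, RKO on the horizontal axis and SW620 on the vertical axis, coloured by module. Diamonds mark the 8 members lower in RKO by the guide test, which lie far to the left of the dotted line of equal values. Members below that line include MED11, MED19 and, of the kinase module, MED13, MED12L, MED13L and CDK19.

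Mediator's partners in transcription were set beside it. They were 3 lists: RNA polymerase II subunits, general initiation factors, and elongation factors with coactivators. In RKO without drug, 2 of 10 tested polymerase subunits and 13 of 30 initiation factors were called as depleted. So were 2 of 21 elongation factors and coactivators. The list medians were -2.91, -1.74 and -1.32. Called or not, 10 of 10, 23 of 30 and 13 of 21 genes lay at or below -1, so the calls leave out many lower genes. In SW620 the calls were 6 of 12, 6 of 30 and 2 of 21, with medians of -0.58, -0.34 and -0.25. There, 4, 2 and 1 genes of the lists lay at or below -1. Examples in RKO are POLR2L at -5.19 and POLR2K at -2.38, both small polymerase subunits, and GTF2B, the factor TFIIB, at -4.51 and GTF2A2, a subunit of TFIIA, at -4.50. In SW620 POLR2L was at -2.02 and POLR2I at -1.85, and the initiation factors ERCC2, a helicase of TFIIH, and CCNH, its cyclin, were at -1.34 and -0.91.

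The line difference was called as lower in RKO for 2 of 10 polymerase subunits, 13 of 30 initiation factors and 3 of 21 elongation factors and coactivators. GTF2B showed it at -4.29 and SUPT4H1, an elongation factor, at -3.46. The median differences were -1.95, -1.48 and -0.80 for the 3 lists, against -0.74 for Mediator.

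With oxaliplatin at 1.9 µM, 2 of 28 tested members were enriched in RKO knockout over the untreated library and none was depleted. Enrichment was called for 0.374% of 18441 genes and depletion for 0.00542%. At an unadjusted exact p below 0.05, 7 members ranked toward enrichment and 0 toward depletion, beside 1188 and 1044 of all genes. MED4, MED21 and MED31 kept too few guides above the count filter to be tested. The Mediator median was 0.23 against 0.03 over all genes, and it was -1.04 over 26 tested members when libraries were scaled by total counts, which shifts all values by -1.32. The spread of guides was much wider than without drug, with an SD of 0.99 among non-targeting guides and a median range of 2.64 between guides of a Mediator gene.

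MED27, a subunit between head and tail, had scaled counts of 82.2, 268, 137 and 164 without drug and of 653, 127, 925 and 2274 with it. Of its guides 3 were higher, between 2.71 and 3.75, and the other was at -1.05. The median was 2.81 (adjusted exact p = 0.0785). Relative to day 0, where the guides had 145, 430, 240 and 479 scaled counts, the treated library had a median of 2.03 for MED27, which was not called.

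MED8 was enriched over untreated cells with all 4 guides higher, from 40.4, 195, 16.6 and 53.4 to 84.6, 722, 79.0 and 123 scaled counts (median 1.50, adjusted exact p = 0.0953). Compared with day 0 the same treated library was still lower for 3 of the 4 guides, with a median of -1.99 (adjusted exact p = 0.0912). MED8 was therefore called in opposite directions by the choice of control library. Against day 0, 2 of 31 members were depleted, MED6 at -2.76 (adjusted exact p = 0.0237) and MED8, where 2.05% of 19080 genes were. The Mediator median was -1.29 against -0.03 over all genes.

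The MED27 call held in 5 of 9 alternative settings and the MED8 call in 1 of 9. A single guide also dominated other members. For MED13L the first RKO guide had 17524 scaled counts against 404 without drug (5.42), while the others lay between -0.52 and 1.95. MED13 had all 4 guides higher under oxaliplatin, at 3478, 540, 458 and 954 scaled counts against 319, 362, 188 and 224, with a median of 1.66. It was not called (exact p = 0.0177, adjusted 0.534).

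**Figure D3:**
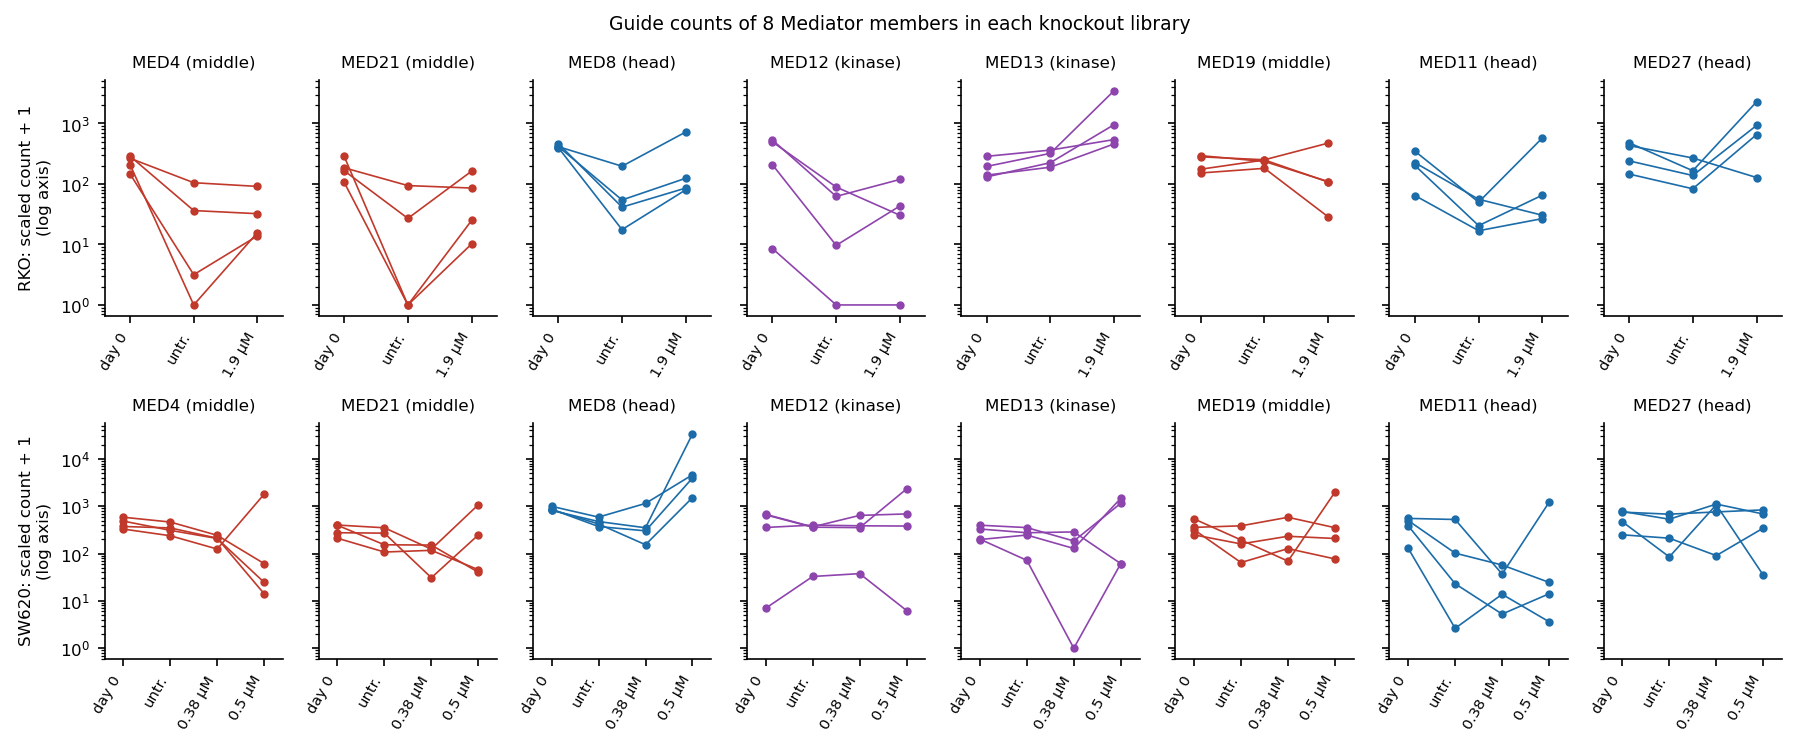
Scaled counts plus 1 (log axis) of every guide, 1 line per guide, of 8 members in each RKO library (top) and SW620 library (bottom) of the knockout screens. By untreated day 20 MED4, MED21 and MED8 drop further in RKO than in SW620 and MED19 drops in SW620, and the guides of a gene spread apart in the treated libraries.

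In SW620 no member was called at either dose. At 0.38 µM the Mediator median over 30 tested members was -0.28 against 0.04 over all genes, and calls were made for 0.0105% of genes as depleted and 0.0314% as enriched. At an unadjusted exact p below 0.05, 2 members ranked toward depletion (MED10 at -1.66 and MED18 at -1.11) and 2 toward enrichment (MED27 at 0.61 and MED28 at -1.02, whose guides ran from -3.16 to 3.38). Over all 19093 genes, 1087 ranked toward depletion and 1164 toward enrichment at that threshold. MED11 kept too few guides to be tested at either dose. Against day 0, MED11 was depleted at 0.38 µM with 4 of 4 guides lower (median -3.40, adjusted exact p = 0.0302), where 0.277% of genes were.

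At 0.5 µM the Mediator median was -0.70 against -0.09, with 0.0105% of genes called as depleted and 0.00524% as enriched. Over all 19091 genes, 1168 ranked toward depletion and 1367 toward enrichment at an unadjusted exact p below 0.05. Of the members, none ranked toward depletion and 3 toward enrichment. These were MED19 at 0.31 with 1 of 4 guides below 0, MED21 at -0.65 with 3 of 4 below 0 and its highest guide at 1.61, and MED25 at 0.12 with 2 of 4 below 0 and its highest guide at 1.77. Non-targeting guides had an SD of 1.91 here, and the median range between guides of a Mediator gene was 4.34. MED8 again had all 4 guides above their untreated level, at 4626, 33727, 1524 and 3956 scaled counts against 589, 475, 422 and 372, with a median of 3.18 that was not called. Values at this dose depend on scaling, which shifts all of them by -0.98 on non-targeting guides and by -2.09 on total counts. The comparisons at 0.38 and 0.5 µM share their untreated library, and MED8 was at -0.37 at the lower dose.

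The paralogues of the kinase module had no called drug response. In RKO under oxaliplatin CDK19 was at -0.14, MED12 at 0.89, MED12L at -0.68, MED13L at 1.05 and CCNC at 0.67. Scaled by total counts, MED13L and CCNC lie below 0 and MED12 kept too few guides to be tested. In SW620 at 0.38 and 0.5 µM, CDK19 was at 0.44 and 0.87, MED12 at 0.07 and 0.90, MED12L at 0.95 and -0.47, MED13 at -0.92 and 0.74, MED13L at 0.28 and -1.64, and CCNC at -2.20 and -2.56. Under either other scaling the values of MED12 and MED13L at 0.38 µM and of CDK19, MED12 and MED13 at 0.5 µM lie below 0. MED13L guides at 0.5 µM were at 2.61, -2.86, -1.30 and -1.98, so 3 of 4 were lower there, while in RKO 3 of 4 were higher. CCNC guides ran from -4.44 to -0.17 at the lower dose and from -2.93 to 3.54 at the higher, so the higher dose held a guide strongly in the other direction.

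**Figure D4:**
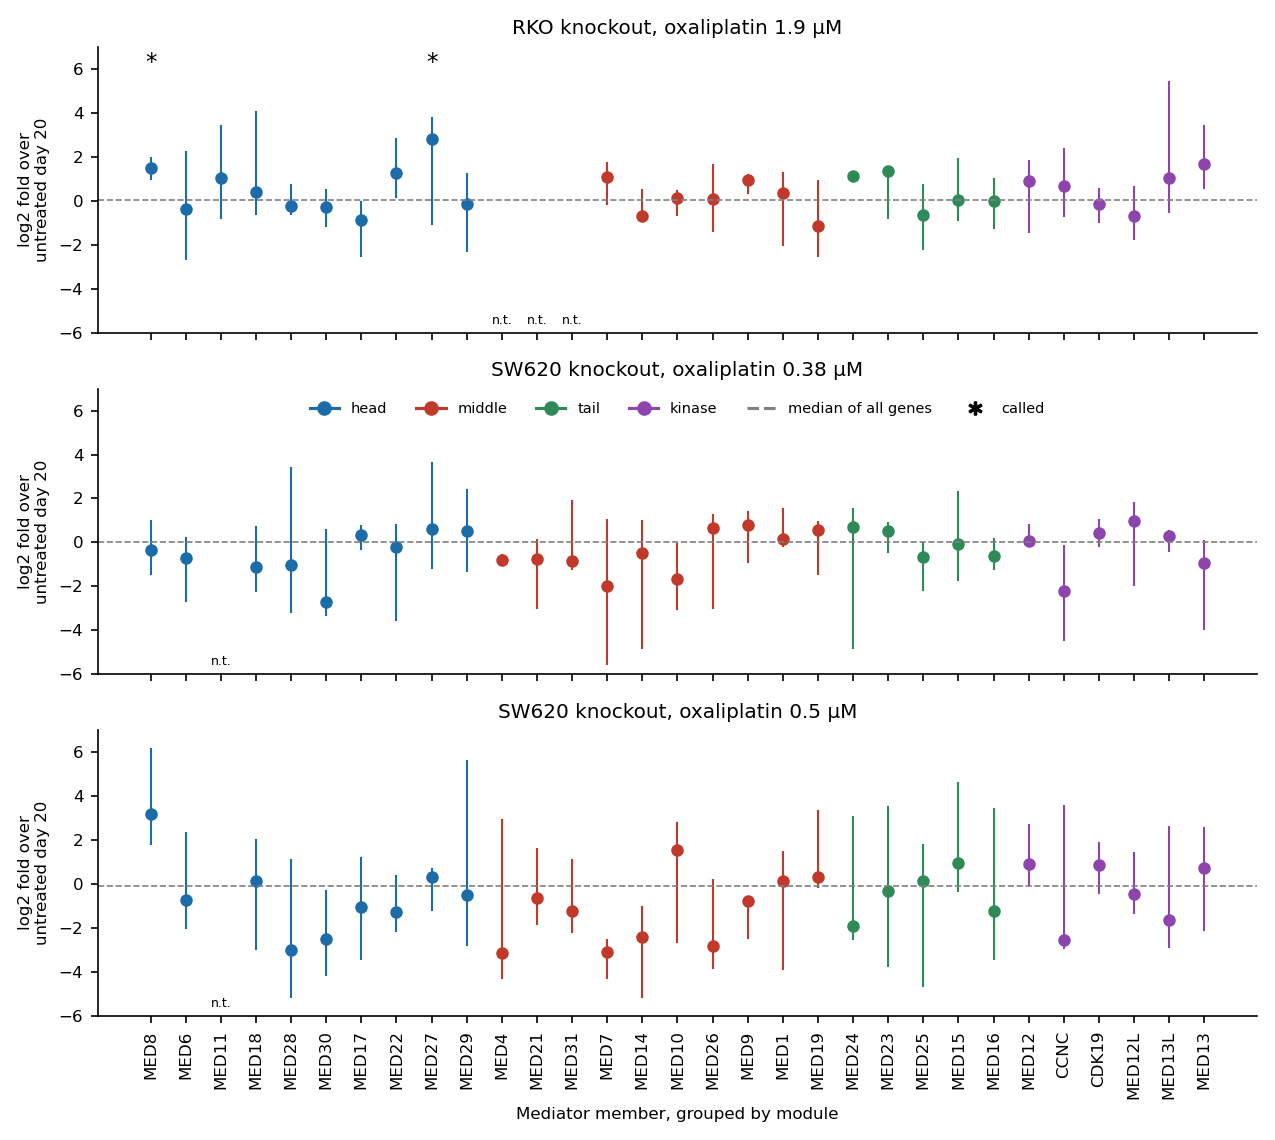
Median log2 fold over untreated day 20 (points) and the lowest and highest guide (lines) per member in the RKO and SW620 knockout screens under oxaliplatin, grouped by module; n.t. marks members with too few guides and the dashed line is the median of all genes. MED8 and MED27 carry the only calls, in RKO at 1.9 µM, and the guide ranges widen at 0.5 µM.

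The drug response was also compared between the lines for the 27 members tested in both, with 0 called as lower or higher in RKO at either SW620 dose. The share of all genes called as lower was 0% for both doses, and as higher it was 0.0705% with the 0.38 µM response and 0.152% with the 0.5 µM response subtracted. With robust rank aggregation and an unadjusted exact p below 0.05, 1 member was lower and 4 higher with 0.38 µM. Over all genes, 1024 of 18432 were lower and 1063 higher. With 0.5 µM, 2 members were lower and 1 higher, beside 1214 and 999 of 18434 genes. The doses differ between the lines, so these values set 1.9 µM beside lower concentrations. MED13 was among the higher members with 0.38 µM subtracted, at 2.78 with 4 of 4 guides above 0.

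Guides meant to activate Mediator genes stayed near their day 0 level without drug. No member was called in RKO or SW620, where 0.112% and 0.181% of genes were called as depleted and 0% as enriched. The Mediator medians were 0.00 and -0.03, against 0.02 and 0.01 over all genes, and single members ran from -0.55 to 0.41 in RKO and from -0.97 to 0.51 in SW620. By robust rank aggregation, at an unadjusted exact p below 0.05, 1 member was lower and 2 higher in RKO. In SW620, 3 were lower and 4 higher. Among all 18777 genes, 1021 were lower and 1035 higher in RKO, and 1044 lower and 1000 higher in SW620.

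The kinases of the module were close to 0 in both lines. CDK8 guides had 186, 329 and 439 scaled counts at RKO day 0 and 190, 395 and 301 without drug, a median of 0.03. In SW620 they went from 100, 200 and 247 to 160, 160 and 193 (median -0.31). CDK19 medians were -0.10 in RKO and 0.23 in SW620. MED20, the head partner of MED18, was at 0.03 and -0.08. CCNC was below 0 for all 3 guides in RKO (median -0.47) and at 0.18 in SW620.

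Under oxaliplatin no activation guide set of Mediator was called either. In treated RKO the Mediator median was -1.41 against -0.80 over all genes, 0.00533% of genes were called as depleted and 0% as enriched, and 19 of the 99 Mediator guides had 0 counts, as did 14.3% of all guides. All 7 kinase module members had medians below 0, between -3.64 and -1.18, as had 4 of 5 tail members. Over all 18763 genes, 11484 had medians below 0 and 8847 at or below -1. No kinase or tail member ranked toward depletion at an unadjusted exact p below 0.05. Head members ran from -5.07 (MED11) to 3.89 (MED20, whose 3 guides went from 244, 129 and 387 to 3706, 2025 and 1152). In that library 1 member was lower and 1 higher at an unadjusted exact p below 0.05, as were 965 and 1011 of 18763 genes. Non-targeting guides had a median of 2.25 (SD 1.42). Scaling on those guides lowers all values by 2.21, and the MED20 value stays above 0.

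In SW620 activation the Mediator median was -0.08 at 0.38 µM and -0.20 at 0.5 µM, against 0.01 and 0.00 over all genes. Calls were made for 0% and 0.0107% of genes as depleted and 0.0373% and 0.0426% as enriched. MED18 had all 3 guides lower at 0.38 µM (median -2.05, exact p = 0.0125, adjusted 0.94). At 0.5 µM its guides lay between -0.15 and 0.49. MED12L had all 3 guides above 0 at 0.5 µM (median 1.45, exact p = 0.0128, adjusted 0.92). Its first guide was at 0.10 (95% interval from counting error -0.26 to 0.47). The guide at the median had 15 counts in the untreated library and was at -0.26 against day 0. At 0.38 µM the MED12L guides were at -0.35, 1.47 and -1.11. Both doses share that untreated library, which had the lowest total, 3647823 counts. The counts at an unadjusted exact p below 0.05 were 2 lower and 1 higher at 0.38 µM and 1 lower and 3 higher at 0.5 µM by robust rank aggregation. All genes gave 977 lower and 969 higher of 18767 at 0.38 µM, and 947 and 970 of 18763 at 0.5 µM.

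**Figure D5:**
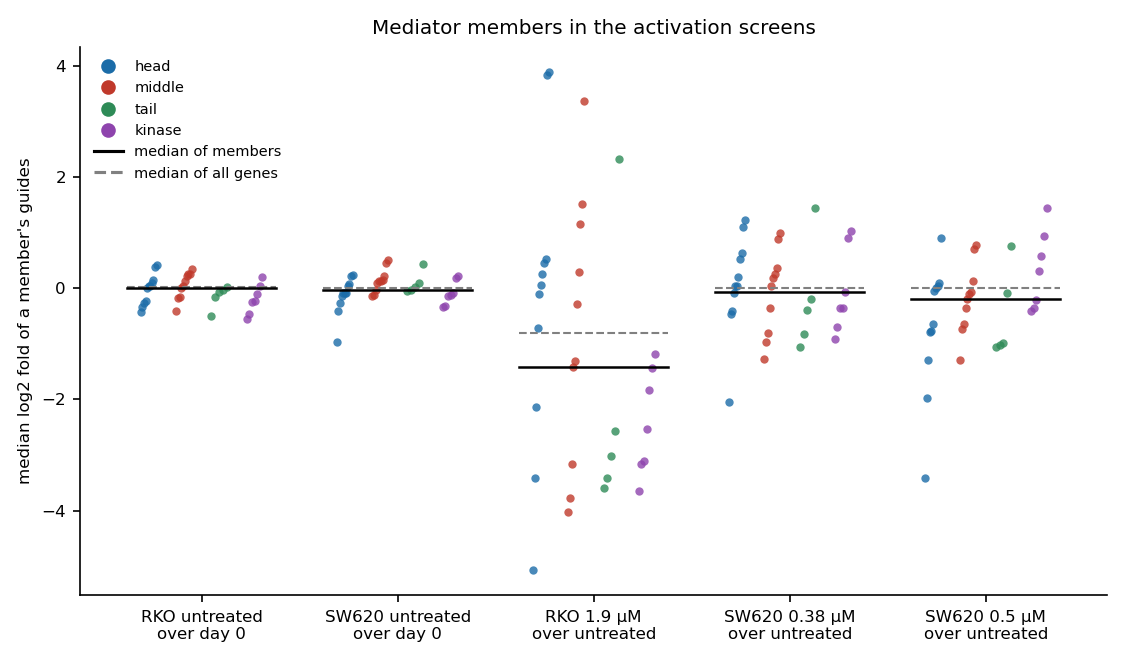
Median log2 fold of each member's guides in the 5 activation comparisons, as points coloured by module, with the median of the members (solid line) and of all genes (dashed line). Members stay between -0.97 and 0.51 without drug and spread widest in treated RKO, from -5.07 to 3.89.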

How the data were processed

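Guide counts from 14 libraries, 1 per condition, were analysed. The authors deposited, for each of the 4 screens, a table of raw counts per guide in whole numbers. A second deposited table per screen holds a signal on a normalized scale, each column of which was found to be the count column times 1 constant, and only the counts were used for tests. The tools named are cutadapt 4.0 and MAGeCK 0.5.7, per the submitters' processing notes. Roles, settings and any genome build are not given in the sources used here. All columns were matched to samples by name, with 0 left over.

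From the counts, scaling was by the median ratio over guides within a screen. Log2 folds used a pseudocount of 5. A guide entered a comparison when its scaled counts averaged at least 20 over the 2 libraries. Folds were standardised in 50 bins of mean count. Robust rank aggregation, with rank shares up to 0.25, then scored genes in each direction, and an exact p was computed by recursion. This p was adjusted by Benjamini-Hochberg over all genes and called below 0.10. Genes needed 3 guides in knockout and 2 in activation screens. Between the knockout screens of the lines, folds were subtracted guide by guide, for guides averaging at least 20 scaled counts in each line. The activation tables of the lines number guides differently, so no such difference was computed there. With 1 library per condition a count model such as edgeR has no residual degrees of freedom. The test was checked on data simulated from the RKO knockout counts at day 0. Those simulated counts did not cover the activation screens or the wider scatter of the treated libraries. Python 3.11.15 with numpy 2.4.6, pandas 2.3.3 and scipy 1.17.1 was used.

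Per-guide values were chosen for members called in any comparison, the 2 lowest and 2 highest members of each module without drug, and the kinase module paralogues. Up to 2 called genes per direction were named from the lists of transcription partners. MED14, MED24, MED25, MED27, MED28 and MED30 values outside this rule were named after they were seen. The members and lists were chosen with earlier results of these data known. Guide sequences were not used here. For a guide at 0 the floor is 3 counts. Floors and intervals reflect counting error alone, because no molecular identifiers are named in the protocols and repeated PCR copies would be counted.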

Additional observations from a re-analysis of the deposited data

Results flagged for a closer look

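The untreated knockout effect differed between RKO and SW620 for 8 of 31 members by the guide by guide test of the difference itself. Of all 19076 genes, 7.06% were called as lower in RKO and 0.0262% as higher. Without drug, 11.6% of all genes lay at or below -1 in RKO and 1.2% in SW620. The median of a member's guide by guide differences in log2 fold, RKO minus SW620, was -3.23 for MED4, -2.97 for MED21, -2.85 for MED31, -2.15 for MED12, -2.13 for MED8, -1.90 for MED24, -1.83 for MED7 and -1.78 for MED23. Every guide that passed, and on which the calls rest, was lower in RKO in each of the 8. MED12, MED23, MED31, MED4, MED7 and MED8 were called in every setting tried, and MED21 and MED24 were not. Each line gave 1 library at each time, so the difference lies between 4 libraries.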

How the results depend on the processing

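Of the members called without drug, 10 of 15 in RKO, 3 of 8 in SW620 (MED8, MED11 and MED19) and 6 of 8 for the difference between the lines were called in every setting tried. Without standardisation within bins the SW620 count was 4, and at an adjusted p below 0.05 it was 5. Without standardisation RKO gained MED14, MED24, MED25, MED27, MED28 and MED30 and lost MED9 and MED22. The RKO oxaliplatin count of 2 fell to 1 with scaling by total counts, scaling by non-targeting guides, no count filter or a pseudocount of 1, where MED27 alone was called. It fell to 0 with bins of the control count, without standardisation and at an adjusted p below 0.05. With day 0 as control it was again 2, but as depletion of MED6 and MED8, and MED8 reversed to -1.99. With that control SW620 at 0.38 µM had 1 call, MED11. Mediator medians moved with scaling. On non-targeting guides they were -1.70 in untreated RKO, -0.61 in untreated SW620 and -3.52 in treated RKO activation. On total counts they were -1.04 in treated RKO knockout, -2.67 in SW620 knockout at 0.5 µM and -4.77 in treated RKO activation. Such scaling shifts all genes together, on total counts by about -1.32, -2.09 and -3.60 in these comparisons. The moves are therefore not particular to Mediator. With MED27 to MED30 counted in the tail, the RKO head median was -1.89. The cause of these changes was not tested. A call count was taken as the same when it stayed within a fixed ratio of the main count, 0 against 0 included. A median was taken as the same when it moved by less than the SD of non-targeting guides. By these rules 189 counts and medians stayed the same and 17 moved. Many of the unchanged counts were 0 against 0, in comparisons without a call. Some module medians could not change under the alternative tried. The SD was 1.91 in SW620 knockout at 0.5 µM, so large shifts of a median count as the same there. This tally therefore does not measure how firm the calls are. Single-member calls were kept in 236 instances, lost in 29 and reversed in value in 1. No paired analysis was possible because the labels give no replicate numbers and each condition has 1 library. Total counts were lowest in untreated SW620 activation, at 3647823, where 0 of 99 Mediator guides had 0 counts. In treated RKO activation, with 28073257 counts of which 52.8% lay in the 1% most abundant guides, 19 of 99 had 0 counts, so lower levels could not be measured for these.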
